A study of Mus musculus with 54 samples.

Results

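The Sult2a sulfotransferase cluster lies on mouse chromosome 7 and was described here through 20 adjoining windows of 50 kb, the first starting at 13400001 and the last at 14350001 (mm10), of an allele-specific replication timing table that holds 46268 windows, 43941 of them autosomal. These windows hold 8 protein-coding genes, and the cluster was chosen by 3 of them, Sult2a1, Sult2a2 and Sult2a4, because their windows had shown a large difference between alleles in embryonic fibroblasts. That contrast is therefore described without a test below. Each gene was placed in the window that holds its middle, or in the nearest window within 50 kb where none does.

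The study profiled replication timing by Repli-Seq, in which S-phase DNA labelled with BrdU is sorted into an early and a late fraction and sequenced, in F1 hybrid mouse cells whose parental alleles can be told apart by sequence. The 54 libraries form 27 profiles, each with a log ratio of early to late signal for each allele, read here as log2 (a higher level means earlier replication; the base is not given in the sources used here). Embryonic stem cells (ESCs) came from 5 lines of 129 and Cas parents: F121 (1 profile), F121-6 and F121-9 (4 profiles each, of which 2 were grown in 2i medium and 2 on feeder cells), F123 (2 profiles) and Cas129 (2 profiles), the other lines in 2i only. For neural precursor cells (NPCs), taken on day 11 of differentiation, there were 2 lines: Cas129 with 2 profiles and F121-9 with 1. The embryonic fibroblasts (MEFs) of 4 embryos gave 2 profiles per embryo. An extraembryonic endoderm (XEN) line of C57B6 and Cas parents (2 profiles) was described only. So were V6.5 ESCs of C57B6 and 129 parents, grown in 2i (1 profile). F121, F121-6, F121-9 and F123 are labelled 129 before Cas in the cross, whereas Cas129 and all MEF embryos are labelled Cas before 129. Strain and parent of origin therefore cannot be told apart in MEFs, while ESCs hold lines of both crosses. F121-6 and F121-9 are clones of the same cross and share a name stem with F121, so the 5 ESC lines may not be independent. The fits counted each line as a separate unit. F123, V6.5 and embryos 3 and 4 are labelled male and the others female. All cells are cultured models and none is liver, the tissue in which these genes are best known.

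Replication timing is the order in which segments of a chromosome are copied during S phase. Early segments are usually rich in active genes and open chromatin, and late segments are usually silent. The Sult2a genes encode cytosolic sulfotransferases that move a sulfate group from the donor PAPS to hydroxysteroids such as dehydroepiandrosterone and to bile acids, which makes these more soluble and easier to excrete. In mice they form a tandem array and are best known from liver. The array is flanked on its lower side by Bsph1 and Bsph2, which encode binder of sperm proteins.

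In ascending order the genes lie at 13450841 to 13473450 (Bsph1), 13554866 to 13571067 (Bsph2), 13623967 to 13670807 (Sult2a5), 13733506 to 13779637 (Sult2a2), 13796246 to 13837410 (Sult2a1), 13909677 to 13989591 (Sult2a4), 14067555 to 14123048 (Sult2a3) and 14222403 to 14254870 (Sult2a6), per RefSeq on GRCm38.p6, which is the same assembly as mm10. Sult2a4 is placed in the window from 13900001 to 13950000, but its annotated start, on the minus strand, lies in the next window. Some of the copies are alike in sequence, as the 250 bases before the annotated start of 3 of them show (RefSeq, GRCm38.p6; 5′ to 3′ on each gene's own strand). Sult2a5 (plus strand, chr7:13623717-13623966) and Sult2a4 (minus strand, chr7:13989589-13989838) lie inside and just beyond the end of the allelic stretch described below, and Sult2a3 (minus strand, chr7:14123049-14123298) lies farther from it. Capitals mark the motif TCATGAACT, part of an inverted repeat of the kind bound by nuclear receptors.
Sult2a5: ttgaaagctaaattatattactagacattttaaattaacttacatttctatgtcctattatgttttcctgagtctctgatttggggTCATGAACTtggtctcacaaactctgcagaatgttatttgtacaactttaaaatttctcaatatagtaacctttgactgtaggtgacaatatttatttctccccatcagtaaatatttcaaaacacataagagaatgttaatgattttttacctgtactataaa
Sult2a4: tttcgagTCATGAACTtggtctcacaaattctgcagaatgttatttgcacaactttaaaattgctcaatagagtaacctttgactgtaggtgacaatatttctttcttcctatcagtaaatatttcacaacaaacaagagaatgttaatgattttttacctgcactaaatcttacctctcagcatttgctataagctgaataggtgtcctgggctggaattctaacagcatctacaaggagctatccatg
Sult2a3: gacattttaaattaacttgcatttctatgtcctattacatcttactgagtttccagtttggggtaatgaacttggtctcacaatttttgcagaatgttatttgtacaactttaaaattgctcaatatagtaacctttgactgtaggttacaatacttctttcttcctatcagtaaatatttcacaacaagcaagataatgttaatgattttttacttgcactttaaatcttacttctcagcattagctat

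Among the 4 copies of the region with an entry (Sult2a5, Sult2a4, Sult2a3 and Sult2a6), local alignments of these stretches ran over 167 to 233 columns with an identity of 81.2% to 92.2%. Against Bsph2 they reached 57.3% to 62.5% over 56 to 124 columns. Sult2a8, a copy just beyond the region, was no closer to them than that, with an identity between 57.4% (Sult2a4) and 61.2% (Sult2a6), and holds no match to the motif. Searched on both strands, the motif was found in Sult2a5, Sult2a4 and Sult2a6, and in 63 of 32851 promoter stretches of the same length (0.192%). It was searched because it had been seen in these stretches, so its presence is a description of the letters. Sult2a1 and Sult2a2 had no entry among these stretches, so they were neither aligned nor searched for the motif. Sequence this alike bears on how reads can be given to a copy, and its part in the values below was not tested.

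The level of every allele is plotted along the cluster for each cell type.

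**Figure D1:**
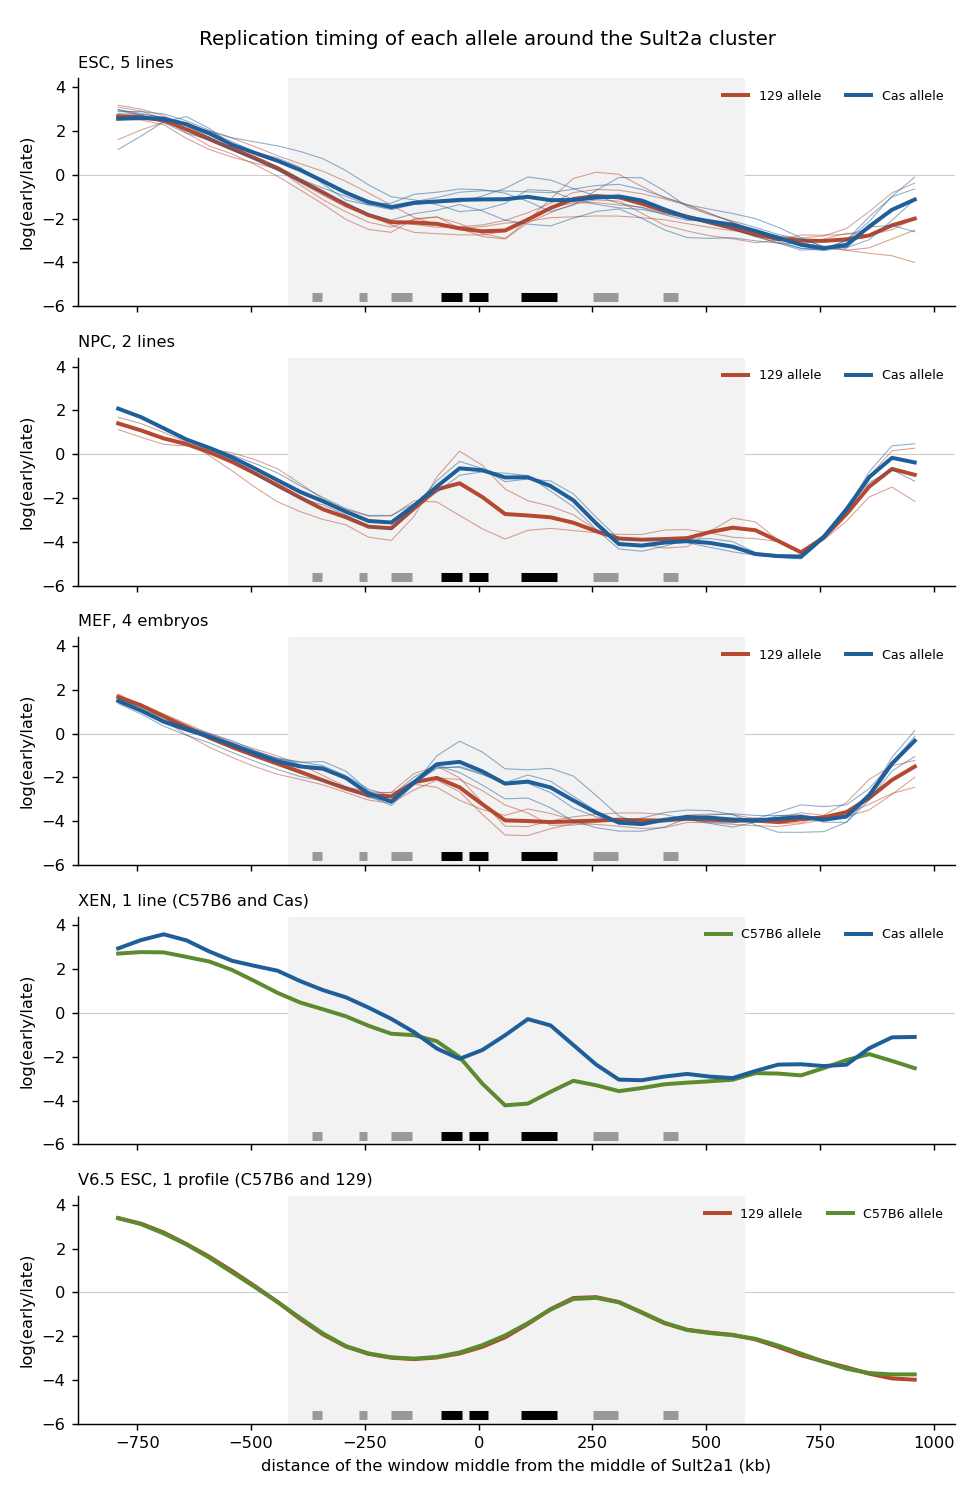
Level of replication timing (log of early over late signal) of each allele against distance from the middle of Sult2a1 in kb, for 5 groups of cells. Thin lines are lines or embryos, thick lines their mean, the grey band the 20 windows, black bars Sult2a2, Sult2a1 and Sult2a4 from left to right, and grey bars the other 5 genes. In ESCs and MEFs the Cas track lies above the 129 track over the black bars, in XEN cells the Cas track lies above the C57B6 track at Sult2a1 and Sult2a4, and in V6.5 the 129 and C57B6 tracks coincide.

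In ESCs the Cas allele replicated earlier than the 129 allele from Bsph1 to Sult2a4, while Sult2a3 and Sult2a6 were not called. The fit over 5 lines called 10 of the 20 windows, all with an earlier Cas allele and all adjoining, from 13450001 to 13950000 (limma, Benjamini-Hochberg adjusted p below 0.05 over 43941 autosomal windows and a difference of at least 0.5). Over all autosomal windows 11.9% were called in that direction. Neighbouring windows correlate at 0.979 or more in every column, so adjoining calls are not independent. Within the called stretch the difference (129 minus Cas) ran from -0.51 at Bsph1 to -1.46 at Sult2a1.

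Sult2a1, which encodes a sulfotransferase of dehydroepiandrosterone, had the largest difference in the region. Its differences were -1.78 in F121, -2.01 in F121-6, -1.56 in F121-9, -1.17 in F123 and -0.77 in Cas129. All 5 lines and all 13 of their profiles had an earlier Cas allele, the profiles between -3.03 and -0.31. The line mean was -1.46 ± 0.49 (SD, n = 5), with a fitted SE of 0.32 and a limma adjusted p of 0.0022. Only 1.27% of autosomal windows had a lower mean difference.

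Sult2a2, the neighbouring copy, differed by -1.50 in F121, -1.58 in F121-6, -1.58 in F121-9, -1.09 in F123 and -0.77 in Cas129. Again all 5 lines and all 13 profiles had an earlier Cas allele, with single profiles from -2.85 to -0.02. The mean was -1.30 ± 0.36 (SD, n = 5; fitted SE 0.25, limma adjusted p = 0.00091). The window between it and Sult2a5, from 13700001, had the lowest adjusted p in the region (0.00012) at a difference of -1.02.

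Sult2a4 was less even. It differed by -1.98 in F121, -0.87 in F121-6, -0.96 in F121-9 and -1.45 in Cas129, but by 0.07 in F123, the line labelled male, where the levels of the alleles were alike. The mean was -1.04 ± 0.76 (SD, n = 5; fitted SE 0.31, limma adjusted p = 0.017), and 11 of 13 profiles had an earlier Cas allele. Without F121 (adjusted p = 0.071) or Cas129 (adjusted p = 0.060) Sult2a4 was not called. In the next window, from 13950001, which holds its annotated start, the difference was -0.36 and not called (limma adjusted p = 0.40). Over the autosomes the Cas columns of F123 had medians of -0.94 and -0.90 and means of -0.67 and -0.66. The 129 columns of F123 had medians of -0.67 and -0.65 and means of -0.60 and -0.60. The part of this offset in the differences of F123 was not tested.

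At these 3 genes the ESC lines were more spread in the Cas than in the 129 level, which was not so at every gene (at Sult2a3 the SDs were 0.48 and 0.75). At Sult2a2 the level of the 129 allele was -2.45 ± 0.19 (SD, n = 5) and that of the Cas allele -1.15 ± 0.42. At Sult2a1 these levels were -2.58 ± 0.24 and -1.13 ± 0.47, and at Sult2a4 -2.05 ± 0.18 and -1.01 ± 0.80. The 129 levels of all 5 lines lay below all 5 Cas levels at Sult2a2 and Sult2a1. At Sult2a4 they overlapped, through the Cas level of F123 (-2.26).

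The other genes of the stretch had smaller differences with smaller SDs. Sult2a5, the lowest copy of the array, differed by -0.69 ± 0.26 (SD, n = 5), Bsph2 by -0.59 ± 0.17 and Bsph1 by -0.51 ± 0.21, and each had an earlier Cas allele in 5 of 5 lines and was called (highest limma adjusted p of the 3, 0.0026). The mean of Bsph1 is close to the minimum of 0.5, and it fell below it without F121-6 (-0.46) or F121-9 (-0.49). At Sult2a3 the lines went both ways, from -0.53 in Cas129 to 0.83 in F121-6, around a mean of 0.07 ± 0.58, and at Sult2a6 it was -0.07 ± 0.23. Neither was called (limma adjusted p = 0.82 and 0.77), and the 95% intervals of their means ran from -0.35 to 0.48 and from -0.43 to 0.29.

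Lines of both crosses had an earlier Cas allele at the 3 chosen genes, apart from F123 at Sult2a4. In Cas129, the only ESC line labelled Cas before 129, the difference was -0.77 at Sult2a2, -0.77 at Sult2a1 and -1.45 at Sult2a4. The lines labelled 129 before Cas ranged from -1.58 to -1.09, from -2.01 to -1.17 and from -1.98 to 0.07. Cas129 thus had the smallest difference of the 5 lines at Sult2a2 and Sult2a1 and lay inside the range at Sult2a4. With 1 line of that cross, the size was not compared by a test.

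In MEFs, where the genes were chosen, the difference was -1.50 ± 0.71 (SD, n = 4) at Sult2a1, -1.16 ± 0.47 at Sult2a2 and -1.80 ± 0.94 at Sult2a4. At Sult2a4 the embryos had -0.50, -1.74, -2.60 and -2.38 in order of their number, at Sult2a1 -1.12, -0.73, -2.30 and -1.85, and at Sult2a2 -1.27, -0.55, -1.67 and -1.15. Every embryo had an earlier Cas allele at all 3 genes, which the choice of the genes favours. Embryos 3 and 4 had a larger difference than embryos 1 and 2 at Sult2a1 and Sult2a4. The X tracks of embryos 1 and 3 do not match their sex labels: the 129 track of the X had an SD over its windows of 0.255 and 0.301 in embryo 1 (labelled female), as flat as the 0.269 and 0.189 of embryo 4 (labelled male), against 1.32 and 1.34 in embryo 3 (labelled male) and 1.33 and 1.32 in embryo 2 (labelled female). Averaged over the 3 genes, the MEF difference was -1.49 ± 0.60 with all embryos and -1.40 without embryos 1 and 3.

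The extent of the difference was not the same in the cell types. Sult2a5, in the called stretch of the ESCs, had a MEF difference of 0.24 ± 0.28 (SD, n = 4) and an earlier 129 allele in 3 of 4 embryos. On the other side, the windows from 13950001 and 14000001 had -1.58 ± 0.93 and -0.96 ± 0.82 in MEFs, where the ESC means were -0.36 and 0.05. The largest mean difference lay at Sult2a1 in ESCs and at Sult2a4 in NPCs, MEFs and XEN cells. These are means over 20 windows chosen from MEF values, so the shift was not tested.

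**Figure D2:**
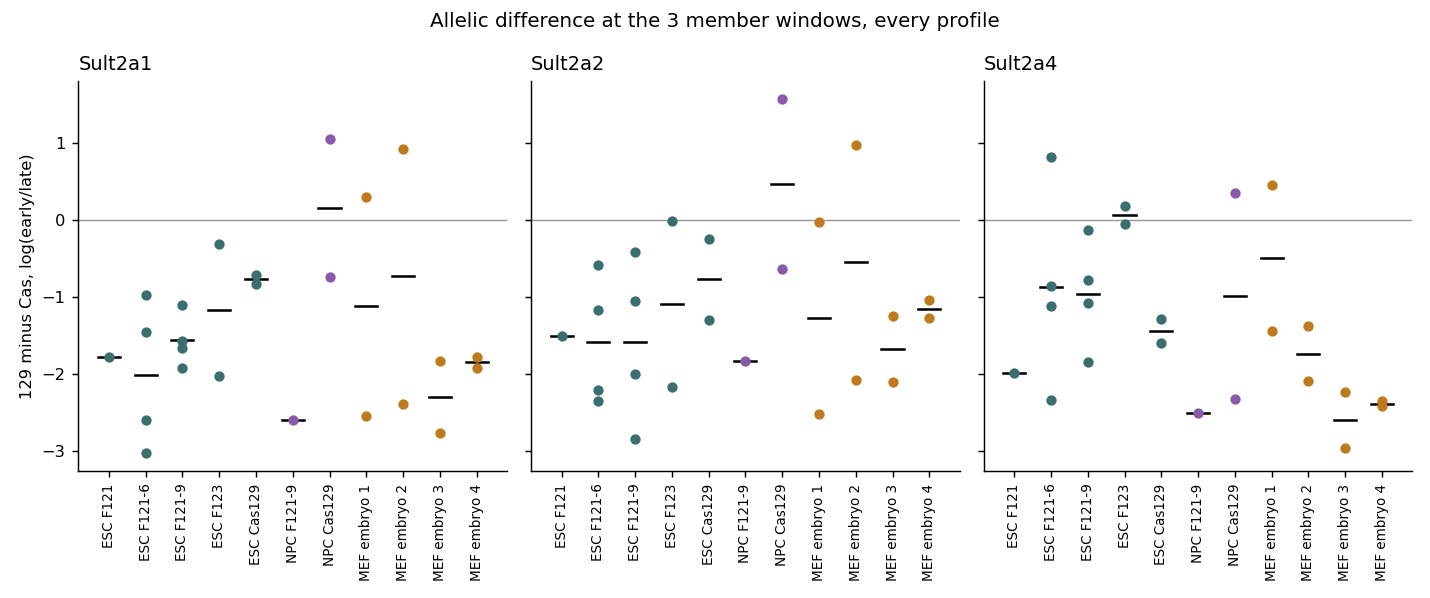
Difference in level (129 minus Cas, log of early over late signal) at Sult2a1, Sult2a2 and Sult2a4 for each line or embryo; points are single profiles and black bars the mean of a line or embryo. All ESC profiles lie below 0 at Sult2a1 and Sult2a2, whereas 1 profile each of embryo 1, embryo 2 and Cas129 NPCs lies above 0 at Sult2a1.

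Repeat profiles were far apart in embryos 1 and 2. At Sult2a1 embryo 1 had -2.54 in its profile numbered 1 and 0.30 in the other, and embryo 2 had 0.92 and -2.38. In embryo 1 the Cas level went from -1.29 to -3.41 between the repeats, and in embryo 2 from -3.42 to -0.34, while the 129 levels moved by less (-3.84 and -3.11, -2.49 and -2.72). Embryos 3 and 4 had an earlier Cas allele in both repeats at all 3 genes, with -2.77 and -1.83 and -1.78 and -1.92 at Sult2a1. Of the 8 MEF profiles, 6 had an earlier Cas allele at Sult2a1, 7 at Sult2a2 and 7 at Sult2a4.

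**Figure D3:**
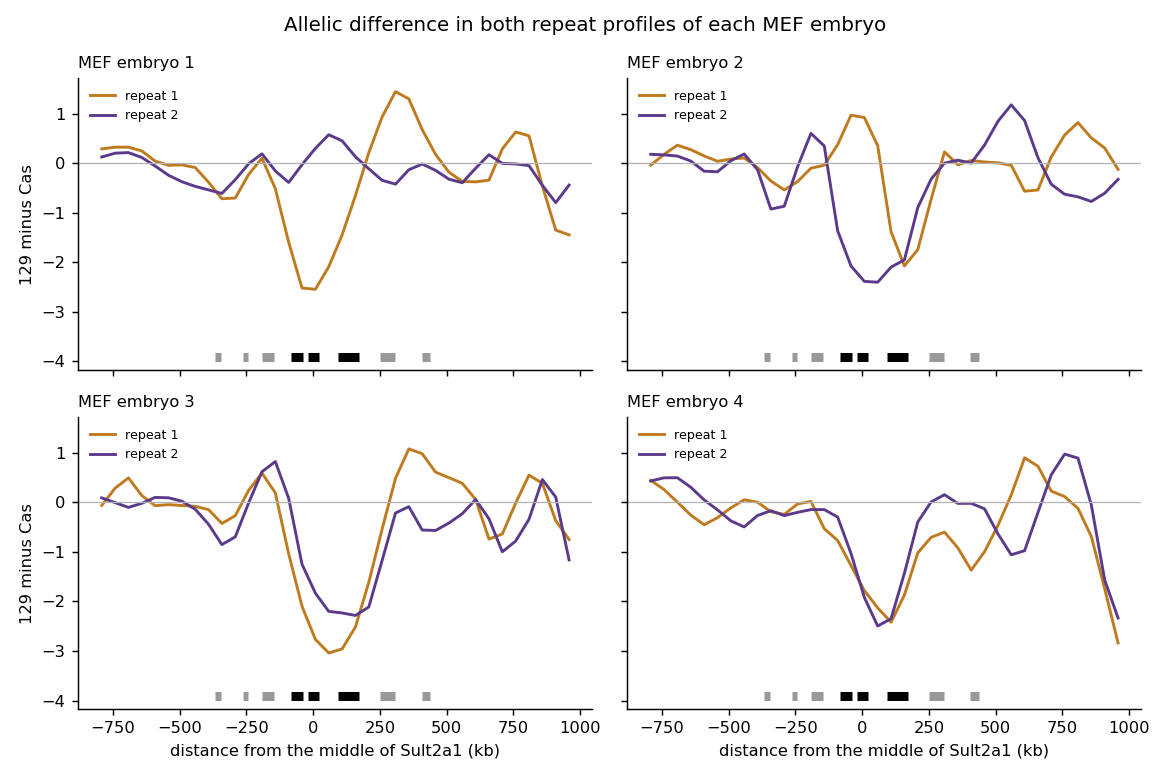
Difference in level (129 minus Cas) along the cluster in both repeat profiles of the 4 MEF embryos, against distance from the middle of Sult2a1 in kb; black bars are Sult2a2, Sult2a1 and Sult2a4, grey bars the other genes. At Sult2a1 both repeats of embryos 3 and 4 lie below 0, while embryos 1 and 2 each have a repeat above 0 (0.30 and 0.92) and a repeat below it (-2.54 and -2.38).

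Over the 12 pairs of repeat profiles in the series, the size of the difference between repeats had a median of 1.68 at Sult2a2, 0.706 at Sult2a1 and 0.515 at Sult2a4, against an autosomal median of 0.264. As a median over the pairs, the window of Sult2a2 stood at the 97.0th percentile of autosomal windows, Sult2a1 at the 80.1st and Sult2a4 at the 73.4th. The other copies stood close to Sult2a4 (Sult2a5 73.0, Sult2a6 73.1, Sult2a3 70.4), and Bsph1 (38.2) and Bsph2 (54.0) lower. The repeats had opposite signs in 3, 3 and 4 of 12 pairs at Sult2a2, Sult2a1 and Sult2a4, and in 4, 5 and 2 at Sult2a5, Sult2a6 and Sult2a3. In the fit, the residual SD of the windows of Sult2a2, Sult2a1 and Sult2a4 stood between the 97.7th and the 99.3rd percentile. The other windows of the region ran from the 18.2nd to the 99.6th percentile. MEF profiles enter both this SD and the repeat pairs. The 3 genes were chosen on MEF values, so their ranks are a description only. The table gives no read counts, so the depth behind a window is unknown and its part in this spread was not tested.

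In NPCs no window of the 20 was called (limma; 4.71% of autosomal windows were called in either direction), and 7 of the 20 had an unadjusted p below 0.05. F121-9 and Cas129 NPCs disagreed at Sult2a1 (-2.60 and 0.15) and Sult2a2 (-1.83 and 0.47) and had the same direction at Sult2a4 (-2.50 and -0.99). The Cas129 value hides repeats of opposite sign: 1.04 and -0.75 at Sult2a1, 1.57 and -0.64 at Sult2a2, and -2.33 and 0.34 at Sult2a4. Sult2a4 came closest to the threshold, at a mean of -1.75 (fitted SE 0.50, limma adjusted p = 0.064), and passed it in 6 of 21 alternatives. Without Cas129, 3 windows were called with an earlier Cas allele, and without F121-9, 1 with an earlier 129 allele. Each of these rests on 1 NPC line, which is assumed to vary like the ESC lines and MEF embryos. The 95% interval of the NPC mean was -1.54 to 0.18 at Sult2a2 and -2.31 to -0.15 at Sult2a1.

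The direct comparison of NPCs with ESCs, in which F121-9 and Cas129 contribute to both groups unpaired, called 2 of 20 windows, both shifted towards an earlier 129 allele in NPCs (limma; background 8.04% in that direction). These were the window from 13700001, between Sult2a5 and Sult2a2 (0.89, SE 0.29, adjusted p = 0.0497), and the last window, from 14350001 (1.02, SE 0.33, adjusted p = 0.05). Both lie at the threshold, and most alternatives left 0 or 1 called. None of the 8 genes was called: the shift was 0.62 at Sult2a2, 0.23 at Sult2a1 and -0.71 at Sult2a4.

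XEN cells had the largest single difference in the region. At Sult2a4 the difference of C57B6 minus Cas was -3.77 and -3.95 in the 2 profiles, with C57B6 levels of -4.21 and -4.07 and Cas levels of -0.44 and -0.12. Both profiles of this 1 line thus had a Cas level near 0 and a late C57B6 allele. Only 0.00683% of autosomal windows had a lower mean difference in XEN cells. At Sult2a1 the profiles had -2.69 and -0.38, and at Sult2a2 they had opposite signs (-1.33 and 1.49). Of the 20 windows, 12 had a Cas allele earlier by 0.5 or more, while 32.8% of all autosomal windows of XEN cells differ by 0.5 or more in either direction. Of all autosomal windows, 11.4% had a lower difference than Sult2a5 (-0.68) and 26.1% a lower one than Sult2a6 (-0.35). The share with a Cas allele earlier by 0.5 or more lies between these.

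V6.5 ESCs, which carry no Cas allele, had no difference above 0.0854 in size in any of the 20 windows. Their 129 and C57B6 levels were -2.79 and -2.74 at Sult2a2, -2.48 and -2.41 at Sult2a1, and -1.44 and -1.40 at Sult2a4. At Sult2a1 both lie inside the range of the 129 allele in the 5 hybrid lines (-2.82 to -2.29) and below that of the Cas allele (-1.65 to -0.68). At Sult2a2 both lie close to the lowest 129 level of the hybrid lines (-2.75), and at Sult2a4 both lie above their highest (-1.74). V6.5 is 1 profile, and 3.68% of its autosomal windows differ by 0.5 or more.

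The timing of the cluster, taken as the mean of both alleles, also differed by cell type. MEFs replicated 16 of the 20 windows later than ESCs (limma, adjusted p below 0.05 and at least 1; background 13.7% later), although the median autosomal window was 0.38 earlier in MEFs, whose columns have higher means than those of ESCs and NPCs (-0.22 to -0.10 against -0.67 to -0.54). Sult2a3 had the largest shift of the 8 genes, from -1.01 ± 0.56 (SD, n = 5) in ESCs to -3.79 ± 0.39 (n = 4) in MEFs (-2.79, SE 0.26, adjusted p = 7.6e-08). Sult2a6 shifted by -2.34, Sult2a4 by -1.56, Bsph1 by -1.32, Bsph2 by -1.23 and Sult2a5 by -1.16, all called. Sult2a2 and Sult2a1 were the exceptions, at -0.07 (95% interval -0.73 to 0.58, adjusted p = 0.84) and -0.62 (interval -1.21 to -0.04, adjusted p = 0.053). With the columns centred on their medians Sult2a1 was called later too (-1.26).

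In NPCs, too, the later windows lay on both sides of Sult2a2 and Sult2a1. Of the 20 windows 13 were later than in ESCs (limma; background 16.1% later) and none earlier. The shift was -2.34 at Sult2a6, -2.33 at Sult2a3, -1.78 at Bsph1, -1.64 at Bsph2 and -1.43 at Sult2a5, all called, while Sult2a2 (0.81), Sult2a1 (0.51) and Sult2a4 (-0.40) were not (adjusted p = 0.090, 0.23 and 0.26). At Sult2a2 the NPC lines were apart, with timing of -1.88 in F121-9 and -0.10 in Cas129. Without F121-9, Sult2a2 (1.70, adjusted p = 0.0020) and Sult2a1 (1.27, adjusted p = 0.0084) were called earlier in NPCs on the 1 line left, with its spread taken from ESCs and MEFs. From Sult2a5 to Sult2a6, the earliest window in ESCs thus lay at Sult2a3 (-1.01), in NPCs at Sult2a2 (-0.99) and in MEFs beside Sult2a2 (-1.71).

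Between MEFs and NPCs 4 of 20 windows were later in MEFs (limma; background 7.64% later), an adjoining stretch from 13800001 to 14000000 that holds Sult2a1 (-1.13, SE 0.36, adjusted p = 0.014) and Sult2a4 (-1.16, SE 0.30, adjusted p = 0.0036). The timing at Sult2a4 was -3.19, -2.76, -2.95 and -3.47 in the embryos, below both NPC lines (-2.23 and -1.63). Sult2a2 was not called (-0.89, adjusted p = 0.073) but was in 6 of 22 alternatives, both rescalings among them, so the lower edge of the stretch moved with the processing. The comparison sets columns of different means against each other and depended on Cas129 NPCs, without which 0 windows were called. Without embryo 1, 2 windows were called, and with median centring 7.

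**Figure D4:**
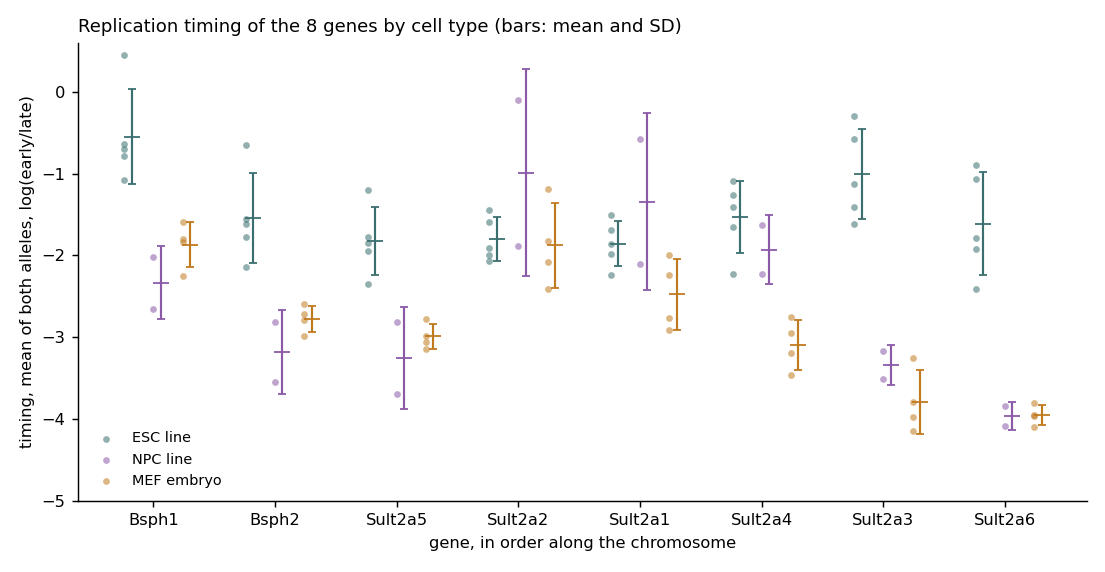
Timing (mean of both alleles, log of early over late signal) of the 8 genes in chromosomal order; points are lines or embryos, and bars the mean and SD of 5 ESC lines, 2 NPC lines and 4 MEF embryos. Sult2a3 and Sult2a6 are far later in NPCs and MEFs than in ESCs, while at Sult2a2 and Sult2a1 the cell types overlap.

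Growth on feeders instead of 2i was compared in 8 profiles of F121-6 and F121-9, fitted with a term for line. It called 0 of 20 windows for the allelic difference and 0 of 20 for timing (limma; background 0% and 12.8%). At an unadjusted p below 0.05 there were 2 and 4 windows. At Sult2a1 the profiles of F121-6 had -2.59 and -3.03 on feeders and -0.97 and -1.45 in 2i, without overlap. Those of F121-9 had -1.57 and -1.10 on feeders and -1.66 and -1.92 in 2i. The fitted effect over both lines was -0.57 (SE 0.41, limma adjusted p = 0.62).

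Other genes of sulfate metabolism were placed in the same way. Of 12 cytosolic sulfotransferases elsewhere in the genome, 4 had an earlier 129 allele in ESCs (background 13.2%) and 0 an earlier Cas allele. They were Sult1b1 (1.62), Sult1d1 and Sult1e1 (1.26, sharing a window), which act on thyroid hormones, catecholamines and estrogens, and Sult3a2 (0.86). The window of Sult1b1 adjoins the shared window, so the calls of these neighbours are not independent. The median difference of the 12 was 0.19, against 0.0078 over all autosomal windows. Of 7 genes of sulfate donor synthesis and sulfate uptake, 1 had an earlier Cas allele (background 11.9%), Bpnt1 (-0.52), which removes the spent donor. The window used for Bpnt1, from 185250001 to 185300000, is the nearest one and does not hold the gene. Of 7 nuclear receptors and 5 sulfatases, 0 were called in either direction (limma, over all autosomal windows; background 25.2%).

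In timing, 4 of the 12 sulfotransferases elsewhere were later in MEFs than in ESCs (background 13.7%) and 0 earlier (background 30.3%), led by Sult1c2 (-2.56). In NPCs 5 of 12 were later (background 16.1%), again with Sult1c2 (-3.42) the largest. The list's median shift was -0.45 in MEFs and -0.34 in NPCs, where all autosomal windows had medians of 0.38 and 0.03. Of the receptors 4 of 7 were earlier in MEFs (background 30.3% earlier), among them Rora (2.27), Vdr (1.82) and Ppara (1.13). Of the 7 donor and uptake genes 2 were earlier in MEFs (background 30.3%), Papss1 (3.54), which makes the sulfate donor, and the sulfate transporter Slc26a2 (1.22). In the same list 1 was later (background 13.7%), the transporter Slc13a1 (-1.18). Of the 5 sulfatases 1 was earlier, Arsb (2.91), and 1 later, Sulf1 (-2.37), against the same backgrounds. The counts of these 2 lists lie near the autosomal shares. The lists are short, and neighbouring genes, such as Sult1c1 and Sult1c2, can share a window or lie in nearby ones, so their calls are not independent.

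The 5 windows whose allelic difference most resembled the mean of the 3 genes over the 11 lines and embryos lay on other chromosomes, and 3 of them have a gene within 200 kb: Gm6590 (chromosome 6, Pearson's r = 0.91), Tmem100 (chromosome 11, 0.90) and Tmcc1 (chromosome 6, 0.87). Their own differences were small, with MEF means of -0.18, -0.08 and -0.21. The 11 values they were matched to ran from -2.31 in F121-9 NPCs to -0.13 in Cas129 NPCs. Of the 43941 autosomal windows, those within 2 Mb of the region were left out, and the 5 had to lie at least 1 Mb apart. Under these rules the 5 windows are the highest by this measure. Picking the highest of so many windows over 11 values favours a large r, so the r values are a description and no test.

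As a check of the labels, all 8 ESC markers had timing above 0 in ESCs, all 6 MEF markers in MEFs and all 6 XEN markers in XEN cells. Each of these sets was above 0 less often in the other cell types. Only 3 of 6 NPC markers were above 0 in NPCs (median 0.36), against 4 of 6 in ESCs (median 0.57). In NPCs 5 of 6 MEF markers and 5 of 8 ESC markers were above 0 as well. The NPC markers thus did not set NPCs apart from ESCs.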

How the data were processed

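Per the file headers, the values deposited by the authors are log ratios (read here as log2) of early to late signal per allele in 50 kb windows on mm10. The submitters' processing notes name Bowtie2, SAMtools and bedtools without versions; smoothing, allele assignment and scaling are not given in the sources used here. Column means fall into 2 sets, -0.67 to -0.54 (ESC, NPC) and -0.22 to -0.10 (MEF, XEN). Depth is unknown.

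Profiles of a line or embryo were averaged, and means and differences fitted per autosomal window with limma 3.58.1 (R 4.3.3) over 5 ESC lines, 2 NPC lines and 4 MEF embryos. A call needed a size of at least 0.5 (allelic, culture) or 1 (timing between cell types) and an adjusted p (Benjamini-Hochberg) under 0.05. The fits were tested on simulated data. Where samples are not stated to be separate cultures, p-values measure only the spread between them. Named are the members, all genes of the region and the listed pathway genes. Another 2 listed genes, 1 receptor and 1 sulfatase, had no window and were not analysed here, and 1 receptor is not reported here by name. Members and lists were chosen with earlier results of these data known. Alternatives were scaling, minimum size, gene placement, samples left out, medium, blocks and single profiles.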

Additional observations from a re-analysis of the deposited data

Results flagged for a closer look

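At Bsph1, MEF embryo 4 had an allelic difference (129 minus Cas) of -0.18, apart from the nearest other embryo at -0.64. It was the only value far from its group among 32 sets of lines or embryos examined at the 8 genes, and chance flags about 1 set in 20.

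The allelic difference of NPCs minus ESCs passed the threshold in 2 of 20 windows, close to the autosomal share of 8.04% in that direction, starting at 13700001 (0.89, SE 0.29, limma adjusted p = 0.0497) and starting at 14350001 (1.02, SE 0.33, limma adjusted p = 0.05). In the former the means were -1.02 in ESCs and -0.13 in NPCs, and in the latter -0.15 and 0.87. With 2i profiles only, with 1 profile per line or with the line as a random block, 0 windows were called.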

How the results depend on the processing

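The 10 windows called with an earlier Cas allele in ESCs numbered 9 to 10 when any line or embryo was left out and 5 at a doubled minimum size; Sult2a2 and Sult2a1 were called in all 22 alternatives each. The 0 calls in NPCs became 0 to 3 with a line or embryo left out, 1 with median centring, 1 with quantile normalization and 2 with 1 profile per line. The 2 calls of NPCs against ESCs became 0 to 2 with a line or embryo left out, 1 at a doubled minimum size, and 0 without embryos 1 and 3, with 2i profiles only, with 1 profile per line or with the line as a random block. At a doubled minimum size the timing calls fell to 5 (MEF against ESC), 4 (NPC against ESC) and 0 (MEF against NPC). MEF against NPC gave 7 with median centring, 2 with 1 profile per line and 0 to 6 with a line or embryo left out; the other timing counts stayed at 15 to 16 and 13 to 15. Culture timing gave 1 with median centring and 0 to 1 with a profile left out.

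Signs turned only for values that were not called. Sult2a3 in ESCs was -0.0073 with quantile normalization, -0.049 with female-labelled cells only, -0.12 with 1 profile per line and -0.12 (without F121-6) to 0.22 (without Cas129) with a line left out. Sult2a2 timing in MEFs against ESCs was 0.022 when the gene was placed by its lower coordinate, whatever its strand, and -0.30 to 0.11 with 1 left out. With 1 left out, NPC values ranged from -1.83 to 0.47 (Sult2a2) and -2.60 to 0.15 (Sult2a1), NPC minus ESC from -0.53 to 1.77 (Sult2a2), -1.14 to 1.61 (Sult2a1) and -1.46 to 0.046 (Sult2a4), NPC minus ESC timing from -0.082 to 1.70 (Sult2a2) and -0.25 to 1.27 (Sult2a1), and MEF minus NPC timing at Sult2a2 from -1.78 to 0.0077. The MEF minus ESC allelic difference over the 3 genes, -0.22 as a description, was 0.05 with quantile normalization, 0.42 with female-labelled cells and -0.40 to 0.01 with 1 left out.

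Replicate numbers did not pair profiles. For each group of repeats of a line or embryo in the same medium, the departure of the profile numbered 1 from the group mean was taken. Over 55 pairs of groups these departures correlated at -0.07 to 0.04 in allelic difference and -0.40 to 0.30 in timing. With the replicate block, 11 windows were called in ESCs, 1 in NPCs against ESCs and 14 in NPC against ESC timing. The cause of these changes was not tested. Depth is unknown and limits every value to the spread between profiles.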

Other observations

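Just beyond the upper end of the described windows the NPC profiles had an earlier 129 allele, a difference from the other cell types that was not tested. Inside that end, the windows from 14300001 and 14350001 had NPC means of 0.50 and 0.87, and no NPC profile had an earlier Cas allele there. In the window from 14400001, which holds Sult2a8, another sulfotransferase of the array's family, the 129 allele was earlier by 0.64 to 1.65 in all 3 NPC profiles, with a line mean of 1.08 (0.64 and 1.53 in the 2 lines). Of autosomal windows 99.3% had a lower NPC mean. In the same window the mean was -0.17 ± 0.28 (SD, n = 5) in ESCs and -0.02 ± 0.17 (SD, n = 4) in MEFs. The window was picked after its values had been seen.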
